A study of Mus musculus with 10 samples.

Results

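The regions described here are stretches of open chromatin at the ends of noncoding genes in MYC-driven mouse liver tumours. They were chosen from the peak lists of 10 ATAC-seq libraries. In ATAC-seq a transposase cuts and tags accessible DNA, and a peak is a stretch with more tags than its surroundings. The lists gave 12266 combined regions on the 19 autosomes and X. A region was kept when it was called in 2 to 9 lists, lay within 1000 bp of either end of a gene that RefSeq lists as neither protein-coding nor a pseudogene, and lay more than 1000 bp from both ends of every protein-coding gene. This left 432 regions of 9286 that were called in 2 to 9 lists, or of 12266 in all. Another 191 regions with the same placement were called in 1 list and 29 in all 10 lists, and these were not kept. The number of lists that call a region is a measured value, so the size of the set is a description.

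All tumours came from FVB mice in which a tetracycline-controlled activator, driven by the liver promoter LAP, turns on a MYC transgene (TRE-MYC) once doxycycline water is withdrawn. The Homo group (n = 3, about 100 days old) was Arid1a fl/fl with Alb-cre. The Het group (n = 3, about 70 days old) was Arid1a fl/+ with Alb-cre. The WT group (n = 4, about 55 days old) was Arid1a flfl without Cre, so its Arid1a genes were floxed but intact. The protein made by Arid1a is part of the BAF (SWI/SNF) complex, which moves and evicts nucleosomes. Alb-cre acts in cells that use the albumin promoter, so other cells of a tumour keep Arid1a. Tumours were taken when the mice died, and age therefore differs between all 3 groups. Age, Cre and genotype cannot be told apart in comparisons with WT, and age and genotype cannot be told apart between Homo and Het. Nothing in the labels ties a numbered library to its own animal, so the tests measure the spread between libraries, part of which may be technical.

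Noncoding genes make RNAs that work without being translated. Long noncoding RNAs (lncRNAs) are made by RNA polymerase II, and some carry small nucleolar RNAs (snoRNAs), which guide chemical changes of ribosomal RNA, in their introns. Transfer RNA (tRNA) genes, 5S ribosomal RNA genes and some small structured RNAs are read by RNA polymerase III, whose output rises with growth and with MYC. Spliceosomal small nuclear RNAs (snRNAs) assemble the machinery that removes introns. MicroRNAs (miRNAs) pair through their seed, bases 2 to 8, with messenger RNAs and lower their output.

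The following promoters are examples whose whole window lay inside one of the regions. All are at lncRNA genes, and other windows that lay wholly inside a region, such as those of Snhg5, Snhg16 and Mir22hg, are not shown. Each runs from 250 bases before to 50 bases after the RefSeq start on GRCm38.p6, an assembly that shares mm10 coordinates. Capitals mark matches, on either strand, to 8 short motifs: the E-box CACGTG bound by MYC and MAX, the TATA box TATAAA, the CCAAT box, the GC box GGGCGG, the ETS core CCGGAAG, CRE TGACGTCA, AP-1 TGANTCA and YY1 AAGATGG. Neighbouring GC boxes can overlap each other. Snhg15, Snhg9 and Snhg8 are snoRNA host genes, Dleu2 hosts miRNAs (its window lies in a region called in Homo 3 and WT 1), and 1700028E10Rik is a lncRNA gene with a strong peak. The windows lie at chr11:6528711-6529010 (- strand), chr17:24719916-24720215 (- strand), chr3:123508287-123508586 (- strand), chr14:61682324-61682623 (- strand) and chr5:151368425-151368724 (+ strand).
Snhg15: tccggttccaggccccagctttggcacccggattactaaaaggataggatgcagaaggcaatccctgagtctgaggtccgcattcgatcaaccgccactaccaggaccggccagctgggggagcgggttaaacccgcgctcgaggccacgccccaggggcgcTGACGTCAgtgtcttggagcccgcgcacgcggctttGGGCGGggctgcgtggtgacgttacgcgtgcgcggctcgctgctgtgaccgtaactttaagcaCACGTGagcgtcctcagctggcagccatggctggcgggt
Snhg9: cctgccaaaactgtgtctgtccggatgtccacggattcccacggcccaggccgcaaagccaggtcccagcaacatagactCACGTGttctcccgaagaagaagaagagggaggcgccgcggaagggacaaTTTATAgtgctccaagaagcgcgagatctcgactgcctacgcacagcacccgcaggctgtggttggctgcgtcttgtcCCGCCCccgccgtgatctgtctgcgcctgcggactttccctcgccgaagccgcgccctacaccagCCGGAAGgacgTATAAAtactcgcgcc
Snhg8: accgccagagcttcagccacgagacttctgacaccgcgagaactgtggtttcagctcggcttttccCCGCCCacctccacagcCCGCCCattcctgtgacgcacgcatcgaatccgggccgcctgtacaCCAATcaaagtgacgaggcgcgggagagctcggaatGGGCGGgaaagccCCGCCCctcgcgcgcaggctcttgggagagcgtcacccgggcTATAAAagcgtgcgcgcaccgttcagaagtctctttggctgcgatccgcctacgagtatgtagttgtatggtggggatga
Dleu2: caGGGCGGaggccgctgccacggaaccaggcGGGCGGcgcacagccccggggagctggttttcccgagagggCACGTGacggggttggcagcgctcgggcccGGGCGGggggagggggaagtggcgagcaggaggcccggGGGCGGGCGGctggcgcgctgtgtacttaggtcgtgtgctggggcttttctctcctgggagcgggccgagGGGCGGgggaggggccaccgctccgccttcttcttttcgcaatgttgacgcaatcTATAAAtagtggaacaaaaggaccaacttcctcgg
1700028E10Rik: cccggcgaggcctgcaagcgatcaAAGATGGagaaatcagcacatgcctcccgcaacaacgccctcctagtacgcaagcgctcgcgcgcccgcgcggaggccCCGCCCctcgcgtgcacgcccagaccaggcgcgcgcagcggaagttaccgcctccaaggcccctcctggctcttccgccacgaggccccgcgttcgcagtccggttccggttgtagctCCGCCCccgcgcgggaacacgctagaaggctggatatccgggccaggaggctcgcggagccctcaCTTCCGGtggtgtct

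The E-box stands in Snhg15, Snhg9 and Dleu2, and a TATA box stands in Snhg9, Snhg8 and Dleu2. The printed promoters do not represent the set: of 214 promoters of its genes, 12.1% held the E-box and 9.35% the TATA box. A match describes the letters and says nothing on binding. Of the 15 miRNA genes within 1000 bp of a region, 14 had a mature sequence in RefSeq. The following 4 mature miRNAs are shown because the liver or tumour background of these genes is best known, with the seed in capitals. No 2 of the mature sequences at these regions shared a seed.
mmu-miR-210-3p: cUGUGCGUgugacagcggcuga
mmu-miR-193a-3p: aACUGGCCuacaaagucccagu
mmu-miR-148a-3p: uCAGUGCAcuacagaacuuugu
mmu-miR-203-3p: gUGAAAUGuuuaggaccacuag

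The libraries differed in depth, which bears on every count below. Depth was recovered from the peak values as background tags per 200 bp. It was 0.914, 0.464 and 1.61 in Homo 1 to 3, between 0.655 and 0.738 in Het and between 0.985 and 1.75 in WT. The lists held from 1748 regions in Homo 2 to 9587 in Homo 3. A region inside Arid1a was called in 1 of 3 Homo, 2 of 3 Het and 4 of 4 WT libraries, but the deleted part cannot be placed against it, so it checks no genotype. Of 8 hepatocyte marker genes in RefSeq, 5 (Alb, Apoa1, Cebpa, Fgb and Ttr) had a region at an end in some library, with 0 to 3 per library in Homo, 1 in each Het and 1 to 4 in WT. Marker genes of endothelial cells, of stellate cells and fibroblasts, and of lymphocytes and neutrophils had none in any library. Of 5 cholangiocyte marker genes only Epcam had one, in WT 3 and WT 4. Of 5 macrophage and Kupffer cell marker genes only Spi1 had one, in Homo 3. Of 5 erythroid marker genes only Nfe2 had one, in Homo 3, WT 1 and WT 2. The part of cell content in the results was not tested. In bulk tissue, fewer cells with an open region and less opening per cell cannot be told apart.

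The mean number of noncoding gene-end regions called per library was lower in Homo and Het tumours than in WT tumours, while 1 Homo library lay within the WT range. No test was made of this difference. The number called was 126, 47 and 363 in Homo 1 to 3. It was 198, 137 and 68 in Het 1 to 3, and 371, 315, 215 and 296 in WT 1 to 4. Homo 3 lay above 3 of the 4 WT libraries, while the 3 Het libraries and the other 2 Homo libraries all lay below the lowest WT library. The means were 179 ± 164 in Homo (SD, n = 3), 134 ± 65.0 in Het (SD, n = 3) and 299 ± 64.6 in WT (SD, n = 4). The difference was -121 regions for Homo minus WT and -165 for Het minus WT, against pooled SDs of 115 and 64.8. Homo minus Het was 44.3 regions with a pooled SD of 125, and it was -47.8 without Homo 3, 110 without Homo 2, 76.2 without Het 1, 70.7 without Homo 1 and 11.2 without Het 3. Homo minus WT was -213 without Homo 3 and -54.8 without Homo 2.

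As a share of the set, 41.4% ± 38.1 was called in Homo, 31.1% ± 15.1 in Het and 69.3% ± 14.9 in WT. Regions at protein-coding gene ends (6935 called in 2 to 9 lists) followed the same order, with 46.0% ± 40.5 in Homo, 41.9% ± 18.2 in Het and 80.2% ± 8.79 in WT. Regions at neither kind of end (1919) gave 36.5% ± 36.8 in Homo, 26.9% ± 12.3 in Het and 63.2% ± 17.4 in WT. In each of the 10 libraries the noncoding ends lay between the other classes. When every library was thinned to the depth of Homo 2, the number of noncoding gene-end regions called was 107 ± 74.1 in Homo, 112 ± 56.2 in Het and 180 ± 28.2 in WT. Among the 1748 strongest regions of each list, between 40 and 48 belonged to the set, with 45 ± 2.65 in Homo, 43.7 ± 3.51 in Het and 45.8 ± 2.06 in WT. At equal list length the groups overlapped and differed by less than their spread.

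**Figure D1:**
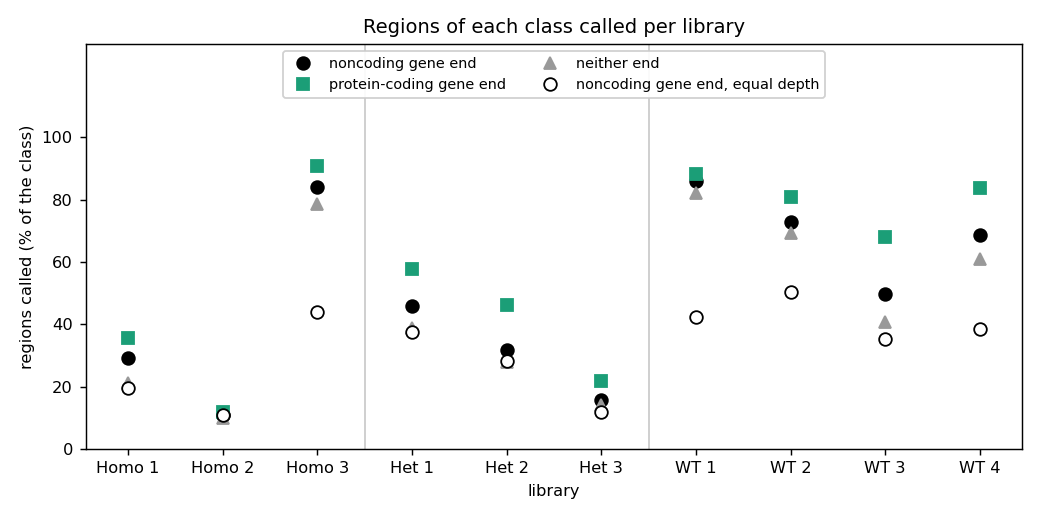
Share of regions called in each library (y axis, percent of the class) for noncoding gene ends (black), protein-coding gene ends (green squares) and neither end (grey triangles), with the noncoding ends at equal depth as open circles. Homo 3 reaches 84.0% as deposited, near WT 1 at 85.9%, while Homo 2 reaches 10.9%.

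Homo was compared with WT to see which noncoding gene ends differed in calls, with Cre, Arid1a genotype and age all differing between these groups. The pattern of every Homo and no WT library was met by 1 of 432 regions (0.231%), against 0.0215% of all regions called in 2 to 9 lists. It lay at the start of the lncRNA gene Gm41331 (chr15:60141794-60142042). The fold of its peak, tags over local background as the authors' caller gave it, was 5.75, 6.83 and 6.13 in Homo 1 to 3, and it was called in no Het or WT library. The fold depends on the depth of a library, so folds are given for each list and not ranked between libraries. The region at Gm41331 kept its calls in all 3 Homo libraries at equal depth, where thinning can remove calls but add none. The difference in calling libraries between Homo and WT was 66.7 percentage points at a −log10 p of at least 10 and 33.3 at the shortest list length, against 100 as deposited. The reverse pattern, every WT and no Homo library, was met by 0 of 432 regions, against 0.377% of all. Without Homo 3 the reverse pattern covered 72 regions (16.7%), against 22.6% of all regions under the same omission. Both directions summed to 1 region, against 73 without Homo 3, 11 without WT 3, 6 without WT 2, 3 without Homo 2, 3 without WT 1 and 2 without WT 4. The reverse pattern held 10 regions without WT 3 (2.31%, against 1.27% of all) and 5 without WT 2 (1.16%, against 0.689%). It held 1 without WT 1 (0.231%, against 0.571%) and 1 without WT 4 (0.231%, against 0.528%). Every Homo and no WT held 3 without Homo 2 (0.694%, against 0.323%) and 2 without WT 1 (0.463%, against 0.0323%). Without WT 2, WT 3 or WT 4 it held 1 (0.231%, against 0.0323%).

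At equal depth 4 regions were called in every WT and no Homo library, which is 0.926% of the set against 1.23% of all regions. They lay at Gm46766, Rnu1b6 (a U1 snRNA gene), Gm52862 and 5830454E08Rik. The region at 5830454E08Rik had folds of 9.18, 8.82, 8.16 and 6.08 in WT 1 to 4 and was called as deposited in Homo 3 at 7.23. A second region with every Homo and no WT call at equal depth lay at the snRNA gene Gm22614, which as deposited was called in 3 of 3 Homo, 1 of 3 Het and 4 of 4 WT libraries. In a two-sided Fisher exact test of presence, the smallest p that 3 against 4 libraries allow is 0.0286. Over 9286 regions the smallest Benjamini-Hochberg adjusted p was 0.570 and 0 regions passed 0.05. With so few libraries a region could pass only if most regions reached the smallest p, so the 0 was set by the design. An unadjusted p under 0.05 was reached by 37 regions, of which 1 belonged to the set.

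Het was compared with WT to set tumours with 1 floxed Arid1a copy and Cre beside those without Cre, with age differing as well. The pattern of every WT and no Het library was met by 25 of 432 regions (5.79%), close to the 5.36% of all regions. The reverse was met by 0 of 432, against 0.0108% of all. The 10 highest by median rank within the lists lay at n-TSgct5, B930059L03Rik, Gm23444, Gm46436, 1700105P06Rik, n-TTagt9, Gm19696, C030034I22Rik, Mir193a and Gm26611. Of the 25, 4 lay nearest to tRNA genes (n-TSgct5, n-TTagt9, n-TLtaa3 and n-TVaac7), and Snord58b is a snoRNA gene.

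The serine tRNA gene n-TSgct5 (chr13:22050638-22051221) had folds of 9.09 in Homo 3, no call in Het, and 8.56, 7.95, 6.91 and 8.0 in WT 1 to 4. The snRNA gene Gm23444 (chr11:83271112-83271783) had 8.13 in Homo 3, no call in Het, and 7.28, 7.88, 6.69 and 6.79 in WT. The lncRNA gene B930059L03Rik (chr12:110591165-110591950) had 7.38 in Homo 3, no call in Het, and 8.13, 7.28, 6.21 and 8.28 in WT. These 3 regions kept 4 of 4 WT calls when thinned to equal depth. Thinning can only remove calls, so the 0 of 3 Het calls could not change. Het minus WT, -100 percentage points as deposited, was -25 at n-TSgct5, -50 at B930059L03Rik and 0 at Gm23444 at the shortest list length. At equal depth 5 regions showed the pattern (1.16% of the set, against 1.01% of all regions), the other 2 lying at Gm11205 and Gm39325.

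Mir193a, whose miRNA acts as a tumour suppressor in several tissues, had a region (chr11:79710933-79711711) with folds of 6.39 and 5.90 in Homo 1 and Homo 3, no call in Het, and 5.24, 6.77, 6.44 and 7.0 in WT 1 to 4. With thinning, 0 of 3 Homo, 0 of 3 Het and 3 of 4 WT libraries called it. Each of the 25 regions was called in at least 1 Homo library, which follows from the 0 regions called in every WT and no Homo library. At n-TSgct5, Gm23444 and B930059L03Rik the only Homo call was in Homo 3, the Homo library of greatest depth. Mir193a had calls in 2 Homo libraries. In Fisher's exact test the smallest adjusted p was 0.532 over 9286 regions and 0 passed 0.05. As for Homo against WT, the number of libraries fixed this in advance, so it does not show that the groups are alike. An unadjusted p under 0.05 was reached by 499 regions, of which 25 belonged to the set. Without WT 3 the pattern covered 52 regions (12%, against 10.5% of all), and without Het 1 it covered 56 (13%, against 13.5% of all).

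Homo was compared with Het to set tumours with both Arid1a copies floxed beside those with 1, with age differing as well. Every Homo and no Het library called 5 of 432 regions (1.16%), against 0.345% of all regions. They lay at Epb41l4aos, Gm41331, A630026N12Rik, E130018N17Rik and Gm10244. Epb41l4aos, listed here among the snoRNA hosts, had folds of 6.37, 5.42 and 6.08 in Homo 1 to 3, no call in Het, and 6.0 and 6.31 in WT 1 and WT 3. Gm10244 had 4.46, 5.36 and 7.39 in Homo, no call in Het, and 7.05, 5.43, 5.51 and 7.52 in WT. At equal depth 3 regions had the pattern, at Gm41331, Gm22614 and Gm10244, which is 0.694% of the set against 0.183% of all.

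Every Het and no Homo library called 1 region (0.231%), against 0.0862% of all. It spanned the methionine tRNA gene n-TMcat16 (chr15:57975506-57976257). Its folds were 5.66, 5.80 and 5.22 in Het 1 to 3 and 5.26, 5.11 and 6.17 in WT 1, WT 3 and WT 4, and it was not called in Homo. Thinning to equal depth left 3 of 3 Het and 3 of 4 WT calls, and it could not add a Homo call. The difference in calling libraries was 0 between Homo and Het at a −log10 p of at least 10, at the shortest list length and when 50% of the region had to be covered. At equal depth 3 regions had the pattern of every Het and no Homo library, at Gm23472, n-TMcat16 and 2310068J16Rik, which is 0.694% of the set against 0.851% of all. Each direction thus held 3 regions at equal depth. With 3 against 3 libraries Fisher's exact test cannot go below 0.1, the smallest adjusted p was 1, and 0 regions reached an unadjusted p under 0.05. Without Homo 2 the pattern of every Homo and no Het library covered 19 regions (4.40%, against 3.31% of all). The reverse covered 1 (0.231%, against 0.0862% of all). Without Homo 3 the balance turned, with 5 regions called in every Homo and no Het library (1.16%, against 0.452% of all) and 9 in every Het and no Homo library (2.08%, against 3.19% of all). Without Homo 1 the 2 directions held 10 regions (2.31%, against 1.17% of all) and 1 (0.231%, against 0.162% of all). Without Het 1 they held 8 (1.85%, against 1.15% of all) and 2 (0.463%, against 0.140% of all). Comparisons with a shared group use the same libraries, so their lists are not independent.

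**Figure D2:**
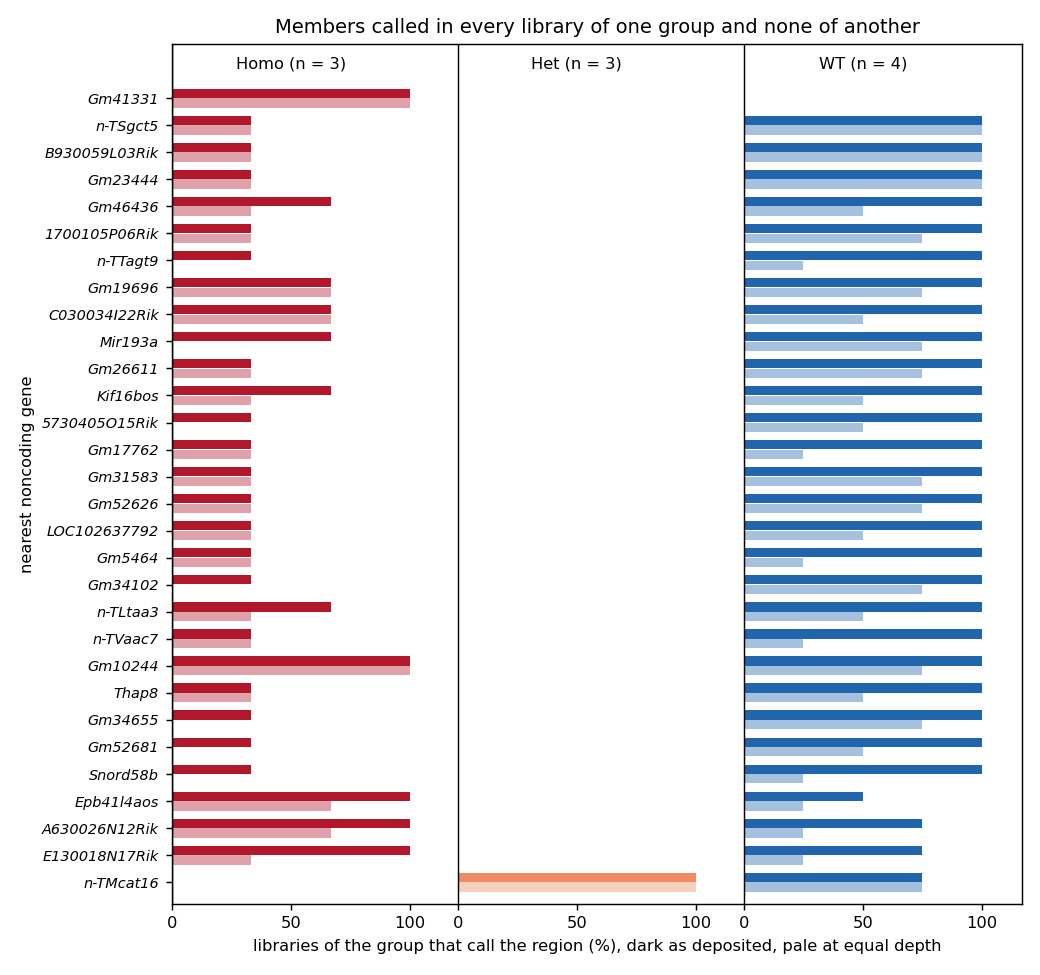
Share of the libraries of each group (x axis, percent, groups side by side) that call each region named on the y axis, for the regions called in every library of 1 group and in none of another. Dark bars are the deposited lists and pale bars equal depth, at which n-TSgct5, B930059L03Rik and Gm23444 stay at 100% of WT. Thinning cannot add calls, so a group at 0% stays at 0%.

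By the nearest noncoding gene, 317 regions (73.4%) lay at lncRNA genes, 55 at tRNA genes, 31 at snRNA genes, 12 at miRNA genes, 8 at ribosomal RNA genes and 9 at genes of other kinds. The lncRNA regions were called in 92, 34 and 265 in Homo 1 to 3, in 145, 105 and 55 in Het 1 to 3, and in 280, 233, 166 and 220 in WT 1 to 4. Their mean share was 41.1% in Homo, 32.1% in Het and 70.9% in WT, close to the whole set. The snRNA regions were called most often in Homo 3 as deposited, with 15, 7 and 30 of 31 in Homo, 20, 12 and 5 in Het, and 22, 23, 15 and 25 in WT. The regions at 5S and 4.5S RNA genes, which RefSeq lists under ribosomal RNA, had 0, 0 and 7 of 8 in Homo. They had 2, 2 and 0 in Het, and 4, 4, 2 and 2 in WT. Mean shares in Homo, Het and WT were 55.9%, 39.8% and 68.5% for snRNA regions and 29.2%, 16.7% and 37.5% for ribosomal RNA regions. Over the whole set they were 41.4%, 31.1% and 69.3%. As deposited the Homo 3 count of snRNA and of ribosomal RNA regions was above every WT library, and Homo 3 called 84.0% of the whole set. At equal depth the snRNA counts were 7, 7 and 15 in Homo, 16, 10 and 3 in Het, and 12, 15, 11 and 15 in WT, so Homo 3 no longer lay above WT. The ribosomal RNA counts at equal depth were 0, 0 and 4 in Homo, 1, 2 and 0 in Het, and 2, 1, 2 and 1 in WT. These genes come in near-identical copies, and how reads with several matches were handled is not given in the sources used here.

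**Figure D3:**
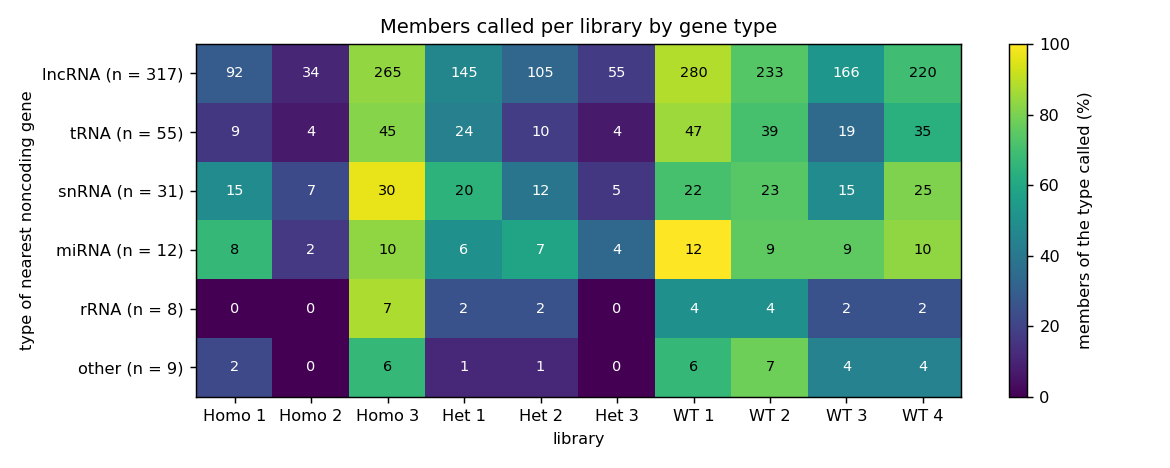
Members called in each library (columns) by type of the nearest noncoding gene (rows). Colour gives the percent of the type called and the printed number the count, with 30 of 31 snRNA regions in Homo 3 and 5 of 31 in Het 3.

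The snoRNA host genes had the most named members. Of 21 such genes, 11 had a region of the set, 6 had a region that was also near a coding end, 2 had a region in 1 list and 2 had none. Calls at the 11 genes numbered 19 of 33 possible in Homo (57.6%), 14 of 33 in Het (42.4%) and 35 of 44 in WT (79.5%), against 41.4%, 31.1% and 69.3% over the whole set in the same groups. Snhg5, Snhg9, Snhg3, Snhg8, Snhg16 and Snhg15 were called in all 4 WT libraries. Snhg4 and Snhg20 were called in 1 and 2 WT libraries.

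Snhg5 (chr9:88522507-88523362) had folds of 5.34, 5.0 and 9.07 in Homo 1 to 3, of 6.69 and 4.44 in Het 1 and Het 3, and of 8.91, 8.82, 6.63 and 6.89 in WT 1 to 4. Snhg9 (chr17:24719662-24720291) had 6.07, 5.23 and 5.49 in Homo, 6.56 and 5.42 in Het 2 and Het 3, and 5.80, 6.14, 6.90 and 6.07 in WT. Both were called in all 3 Homo and in 2 of 3 Het libraries. Snhg3 (chr4:132353393-132353861) had 8.54 and 4.55 in Homo 1 and Homo 2, 6.88, 9.29 and 6.41 in Het, and 5.77, 6.02, 6.94 and 4.57 in WT. It was the one snoRNA host in this list whose call was missing from Homo 3 but present in both other Homo libraries.

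Snhg15, whose promoter is printed above, had a region (chr11:6528534-6529012) with a fold of 7.63 in Homo 3, of 6.25 and 5.83 in Het 1 and Het 2, and of 8.14, 6.89, 4.66 and 5.82 in WT. Snhg8 (chr3:123508072-123508817) was called in Homo 1 and Homo 3 at 6.15 and 8.06, in Het 1 and Het 2 at 7.03 and 7.14, and in WT at 7.76, 6.60, 5.80 and 6.74. Dancr, a lncRNA that keeps progenitor cells undifferentiated, and Snhg17 each had calls in 1 of 3 Homo, 0 of 3 Het and 3 of 4 WT libraries. No gene of this list met the pattern of every WT and no Homo or no Het library.

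Few miRNA genes were members. Of 24 listed miRNA genes of liver and cancer, Mir210 was the single member, Mirlet7i was called in all 10 lists, 21 had no region within 1000 bp and 1 was not matched to RefSeq. Mir210, which hypoxia induces, had a region 160 bp from its end (chr7:141221653-141222219). Its folds were 6.31 and 12.1 in Homo 1 and Homo 3, 6.61, 6.25 and 5.26 in Het, and 8.75, 7.88, 6.75 and 7.60 in WT. It was called in every library but Homo 2. Of 15 miRNA host genes, Mir22hg and Dleu2 were members, each with a region called in Homo 3, in Het 1 and Het 2 and in 4 of 4 WT libraries (at Dleu2 this one lay 688 bp from the gene end), and 12 had no region.

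Mir148a, abundant in liver, lay 723 bp from a region called in 2 of 3 Homo, 1 of 3 Het and 4 of 4 WT libraries, with folds of 5.29 and 5.70 in Homo 2 and Homo 3, 5.79 in Het 2, and 5.10, 6.20, 6.15 and 5.67 in WT. Mir203, known from skin and as a tumour suppressor, had calls in WT 1 and WT 2 at 4.12 and 5.43. Mir7655 had the strongest miRNA region, at a median rank percentile of 89.7 (100 is the strongest peak of a list by −log10 p). It was called in 2 of 3 Homo, 2 of 3 Het and 4 of 4 WT libraries.

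Of 11 lncRNA and miRNA genes linked to MYC or p53, 6 were members (Pvt1, Trp53cor1, Snhg15, Dleu2, Neat1 and Dancr), 2 were near a coding end and 3 had no region. Their calls numbered 4 of 18 in Homo (22.2%), 7 of 18 in Het (38.9%) and 20 of 24 in WT (83.3%), against 41.4%, 31.1% and 69.3% over the whole set. All 4 Homo calls were in Homo 3. Pvt1, the neighbour of Myc, was called in WT 1 and WT 2 at folds of 5.56 and 5.45 and in no Homo or Het library. Trp53cor1, a p53-induced lncRNA also called lincRNA-p21, was called in no Homo library, in Het 3 at 5.33, and in WT 1 to 3 at 6.21, 7.09 and 7.25. Both kept these calls at equal depth.

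Of 8 nuclear body and X-inactivation RNAs, Malat1 and Neat1 were members. Malat1, an RNA of nuclear speckles, had a region 450 bp from its end (chr19:5803122-5803844) with folds of 5.76 and 6.91 in Homo 1 and Homo 3, 7.34 and 6.35 in Het 1 and Het 2, and 5.48, 8.33, 6.25 and 6.88 in WT. It kept all 8 calls at equal depth. Neat1, the scaffold of paraspeckles, had 4.59 in Homo 3, 6.57 and 4.58 in Het 1 and Het 2, and 4.31, 4.29, 4.30 and 4.0 in WT, and its 4 WT calls were all lost at equal depth.

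Of 9 imprinted noncoding genes, Peg13 and Nespas (listed as Gnasas1) were members and 6 had no region. Peg13 was called in WT 1 and WT 4, and Gnasas1 in Homo 3 and WT 2. Of 12 developmental antisense and HOX-linked RNAs, Crnde and Oip5os1 were members and 10 had no region. Crnde, a lncRNA raised in many tumours, was called in Homo 3 at 9.64, in Het 2 at 6.50, and in WT 1 to 4 at 7.83, 5.92, 5.77 and 6.15. Oip5os1, also called cyrano, was called in 2 of 3 Homo, 1 of 3 Het and 3 of 4 WT libraries.

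**Figure D4:**
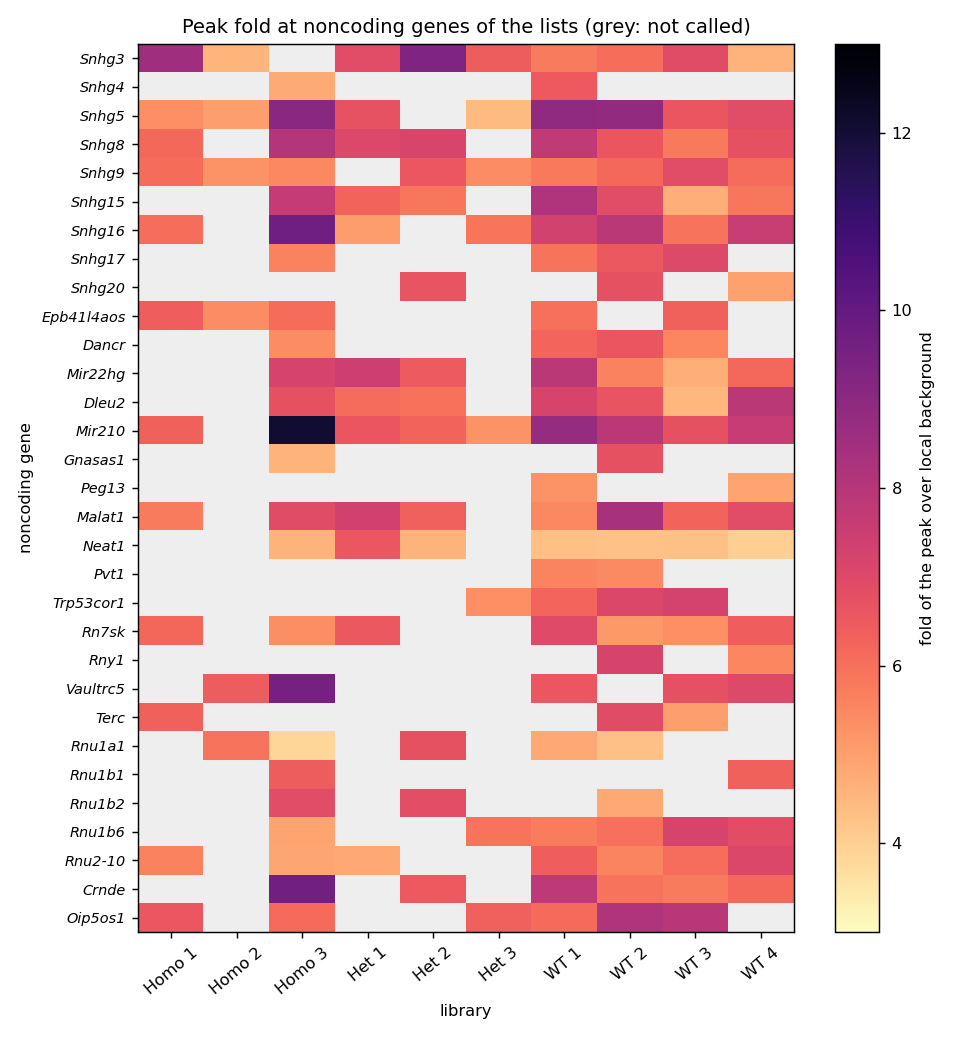
Fold of the peak over local background (colour) at the noncoding genes of the lists that were members (rows) in each library (columns), with grey where no peak was called. Folds depend on depth and are not ranked between columns, and Homo 2 and Het 3 have the fewest calls among the rows.

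Transfer RNA genes gave the largest class after lncRNAs. Of 408 tRNA genes, 94 lay within 1000 bp of 60 regions of the set, 247 were near no region, 43 were near a region that was also at a coding end, 24 were near a region called in 1 list, and 0 were near one called in all 10 lists. All 20 amino acids and 36 of 48 anticodons were represented. With 408 genes for 48 anticodons, tRNA genes also come in copies. The unknown handling of reads with several matches therefore bears on these regions too. The share at a region ran from 4 of 56 cysteine genes (7.14%) and 1 of 22 serine genes (4.55%) to 15 of 25 leucine genes. Summits lay a median of 79 bp from the centre of the nearest tRNA gene, and 50 of the 55 regions had it within 250 bp. The 55 regions were called in 9, 4 and 45 in Homo 1 to 3, 24, 10 and 4 in Het 1 to 3, and 47, 39, 19 and 35 in WT 1 to 4. Their mean share was 35.2% in Homo, 23.0% in Het and 63.6% in WT. Over the whole set it was 41.4%, 31.1% and 69.3%, so the order of the groups was the same.

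Chromosome 13 held 12 of the 55 regions and chromosome 1 held 10. The strongest lay at the arginine tRNA gene n-TRtcg5 (chr7:79466068-79466888), with folds of 7.67 and 9.26 in Homo 1 and Homo 3, 7.42, 6.30 and 5.84 in Het, and 7.61, 8.15, 8.33 and 7.89 in WT. The asparagine tRNA gene n-TNgtt14 had 6.19, 5.88 and 10.9 in Homo, 10.6 and 7.98 in Het 1 and Het 2, and 8.57, 10.4, 8.88 and 8.99 in WT. The glutamate tRNA gene n-TEttc6 had 5.66, 5.49 and 9.84 in Homo, 9.28 and 5.56 in Het 1 and Het 2, and 7.95, 9.94, 8.47 and 8.17 in WT. All 3 regions were called in every WT library. The numbers of calls of the 3 regions did not change at equal depth. The tRNA region n-TYgta2, with 3 other tRNA genes in reach, was 1165 bp wide and was called in 9 lists.

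Among spliceosomal and U-rich snRNA genes, 5 of 14 were members: Rnu1a1, Rnu1b1, Rnu1b2, Rnu1b6 and Rnu2-10. Rnu2-10, a U2 gene, had folds of 5.60 and 4.86 in Homo 1 and Homo 3, 4.82 in Het 1, and 6.37, 5.56, 6.03 and 7.10 in WT. Rnu1b6, a U1 gene, had 4.88 in Homo 3, 5.90 in Het 3, and 5.70, 5.97, 7.19 and 6.87 in WT, and at equal depth 0 of 3 Homo, 1 of 3 Het and 4 of 4 WT libraries called it. Both were called in all 4 WT libraries. Rnu3b3 and Rnu3b4, copies of the U3 snoRNA gene on chromosome 11, were each called in 3 of 3 Homo, 2 of 3 Het and 4 of 4 WT libraries.

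Of 9 small structured RNA genes, 4 were members (Rn7sk, Rny1, Vaultrc5 and Terc). Rn7sk, whose RNA holds the elongation factor P-TEFb inactive, had folds of 6.20 and 5.38 in Homo 1 and Homo 3, 6.54 in Het 1, and 6.95, 5.14, 5.34 and 6.38 in WT. Vaultrc5, a vault RNA gene, was called in 2 of 3 Homo, 0 of 3 Het and 3 of 4 WT libraries. Terc, the telomerase RNA gene, was called in Homo 1, in no Het library, and in WT 2 and WT 3. Calls at these 4 genes numbered 5 of 12 in Homo (41.7%), 1 of 12 in Het (8.33%) and 11 of 16 in WT (68.8%). Over the whole set the shares were 41.4%, 31.1% and 69.3%, so in Homo and WT these genes lay close to the set.

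Some regions of the set stood side by side, among them 24 of 31 snRNA regions and 23 of 317 lncRNA regions. With gaps of at most 20 kb, 74 of the 432 regions fell into 30 arrays, 8 of them with 3 or more. Some arrays were 2 regions at the same gene, as at Dleu2 and Zbtb11os1. The share in arrays was not measured for the other classes of regions. The largest were 5 snRNA regions within 24.9 kb on chromosome 12 and 5 of the 5S ribosomal RNA genes within 44.4 kb on chromosome 8. A 4-region snRNA array spanned chr1:72225933-72255450 and a 4-region tRNA array chr1:171071764-171080300. In the tRNA array the 4 regions were called in 0 or 1 of 3 Homo libraries, in 0 of 3 Het libraries and in 2 or 3 of 4 WT libraries. In the chromosome 12 array, Gm22634 was called in 3 of 3 Homo, 1 of 3 Het and 1 of 4 WT libraries, the next region, at LOC115488065, in 1 of 3 Homo, 1 of 3 Het and 1 of 4 WT libraries, and the one after it, at Gm25679, in 2 of 3 Homo, 1 of 3 Het and 4 of 4 WT libraries. At equal depth LOC115488065 was called in no library.

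The strongest regions by median rank percentile lay at Gm40237 (93.2), 1700028E10Rik (92.9), Gm51701 (90.4) and Gm23205 (90.4), followed by Gm36523, Mir7655, n-TRtcg5, Gm40345, Gm46600 and Gm8273. Gm40237 rests on 2 lists, Homo 3 and WT 3. Its promoter window, of which 207 of 300 bases lay inside a region at this gene, consists of copies of a short repeated unit. How reads with several matches were handled is not given, so the rank of Gm40237 carries that limit. The region at 1700028E10Rik had folds of 9.62 and 9.96 in Homo 1 and Homo 3, 9.05, 10.7 and 5.45 in Het, and 8.45, 10.8, 8.18 and 11.0 in WT. Gm51701 had 7.41, 10.2 and 8.19 in Homo, 7.14 and 7.53 in Het 2 and Het 3, and 9.15, 10.1, 8.01 and 9.36 in WT. Both were called in all 4 WT libraries and missed 1 library of the other 2 groups each: Homo 2 at 1700028E10Rik and Het 1 at Gm51701. Other strong regions at genes other than lncRNA genes lay at Mir1893, n-TGgcc4 (a glycine tRNA gene), and the snRNA genes Gm23971, Gm23851, Gm24497 and LOC115489800, with median percentiles from 61.8 at LOC115489800 to 77.0 at Mir1893. Gm23851 was called in 1 of 3 Homo, 1 of 3 Het and 4 of 4 WT libraries, and LOC115489800 in 2 of 3 Homo, 0 of 3 Het and 1 of 4 WT libraries. The widest regions lay at Gm10910 (1173 bp), n-TYgta2 (1165 bp) and Gm17801 (1082 bp).

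Over all 432 regions the median of the median rank percentiles was 36.4, with quartiles of 22.1 and 54.5. Within a library the median percentile of the called regions ran from 35.6 in Homo 2 to 49.8 in Het 2, against 42.0 in Homo 2 and 54.8 in Homo 3 as the ends of the range for protein-coding gene ends. For regions at neither end it ran from 40.3 in Homo 3 to 52.9 in Homo 1. In most libraries, but not in Homo 3, Het 2 and WT 4, the noncoding regions had the lowest median of these classes. The noncoding regions were narrower than coding ones, with a median width of 490 bp against 555 bp, and wider than the 416 bp of regions at neither end. By number of lists, 84 were called in 2 lists and 36 in 9, with a median of 5, against 6 for coding ends and 4 for neither end.

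A RefSeq start with strand lay near 252 of the 432 regions. Their summits lay a median of 37.5 bp upstream of it, and 60.7% lay within 250 bp on either side. At coding gene ends (5566 regions) the median was 34 bp upstream and 88.4% lay within 250 bp. The promoter windows of 214 member genes had a median GC content of 61.7% and a median of 21 CpG pairs in 300 bases, against 48.3% and 4 in 11575 noncoding promoters and 56.7% and 13 in 21045 coding promoters. The GC box was in 59.3% of the 214, in 16.3% of noncoding and in 46.7% of coding promoters, and in 35.7% of all 32851. The 214 stood at called regions, while the comparison sets held RefSeq promoters with or without a call. Promoters at called coding gene ends were not measured separately, so these values do not compare open noncoding with open coding ends.

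The E-box was in 12.1% of member promoters, in 5.90% of noncoding, 7.91% of coding and 7.15% of all promoters. The ETS core was in 11.2%, 3.90%, 11.7% and 8.86% of the same sets, and CRE in 3.27%, 0.976%, 2.26% and 1.79%. The TATA box (9.35%) and AP-1 (3.74%) were in fewer member promoters than in all promoters (13.6% and 7.81%). The CCAAT box was at 36.0% of member and 37.4% of all promoters, and YY1 at 7.94% and 6.34%. These shares describe letters in windows of equal length whose base composition differs. Here too the comparison sets held promoters with or without a call.

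**Figure D5:**
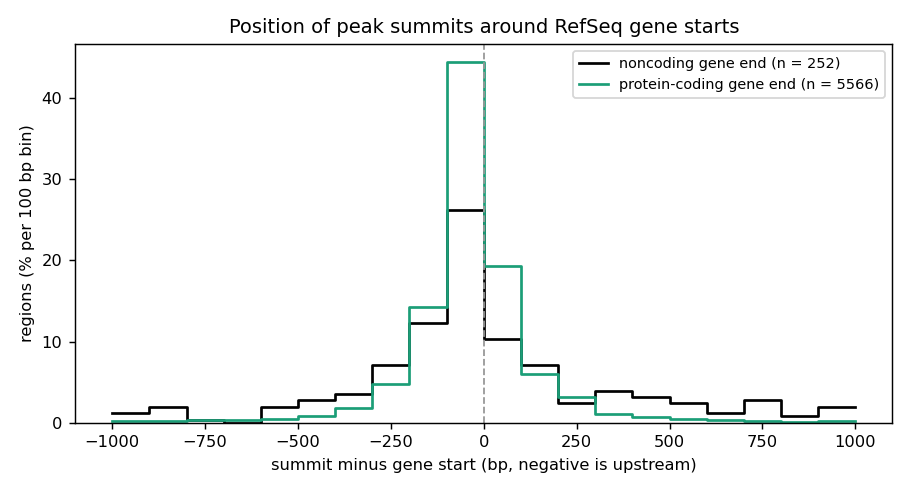
Distance of the peak summit from the nearest RefSeq start (x axis, bp, negative upstream, shown to 1000 bp) as percent of regions in bins of 100 bp (y axis), for noncoding gene ends (black, n = 252) and protein-coding gene ends (green, n = 5566). Both peak just upstream of the start, and 60.7% of the noncoding against 88.4% of the coding summits lie within 250 bp.

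The placement rule had few regions at its limits. The largest distance to a noncoding end inside the set was 978 bp and the smallest outside it 1004 bp. The smallest distance to a coding end inside was 1015 bp and the largest outside 998 bp. The immunoglobulin V segment Ighv8-5 is a member because RefSeq lists it under a biotype of its own, and it was called in 1 of 3 Homo, 0 of 3 Het and 2 of 4 WT libraries.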

How the data were processed

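ATAC-seq was run on 10 liver tumour libraries (3 Homo, 3 Het, 4 WT), grouped by sample title. Per the submitters' processing notes, the tools were Bowtie2 (alignment, to mm10), MACS2 (peaks) and deepTools; no versions, read filters, transposase shift or calling settings are given in the sources used here. The authors deposited 1 narrowPeak list per library, with a score, a fold (a ratio of summit pileup plus 1 over local background plus 1), and −log10 p and −log10 q values per peak; read counts were not analysed here. Fold, rank and score are the authors' own values for a peak and serve to describe or order the peaks of 1 list. Calling was done library by library, with a smallest −log10 p between 5.00 and 5.63.

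For 100% of rows an integer pileup and a background rate were found that return the deposited fold and −log10 p (tolerance 0.001 in −log10 p). As depth served the lowest background that 10 or more rows share. Total reads are not given, so no counting interval was made. Equal-depth lists came from 1 seeded random thinning of pileups to the depth of Homo 2, keeping −log10 p of at least 5. Only deposited peaks were thinned, so calls could be lost and not gained. Overlapping rows were merged within and then across lists, and presence needed 1 bp of overlap. Genes came from the RefSeq table for GRCm38.p6 (21631 protein-coding and 17415 noncoding genes on autosomes and X), which has gene ends but no exons. Promoter and miRNA sequences are from RefSeq on the same assembly, and the promoter table used has no entries for chromosome 18.

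The members and gene lists were chosen with earlier results of these data known. Of 123 list entries in 9 lists, 4 were not matched by symbol or synonym. Named regions were those at listed genes, those called in all libraries of one group and none of another (at most 10 per direction by rank), the 10 strongest, the 15 strongest at genes other than lncRNA and the 3 widest; a few others are named as examples after their values were seen (Mir148a, Mir203, Ighv8-5, n-TLtaa3, n-TVaac7, Snord58b, the arrays and the regions with a pattern at equal depth). Presence was tested by a two-sided Fisher exact test per region over 9286 regions with Benjamini-Hochberg adjustment; mean numbers of members called got no test. One marker gene is not reported here. Same-numbered libraries did not deviate together, so libraries were not paired. Alternatives were other windows, list numbers and distances, equal depth, a −log10 p of at least 10, the strongest 1748 regions per list, 50% coverage, a replicate block and leaving out each library. Scripts were tested on simulated data. Python 3.11.15, pandas 2.3.3, scipy 1.17.1 and matplotlib 3.10.9 were used.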

Additional observations from a re-analysis of the deposited data

Results flagged for a closer look

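Of 29 sets of 4 WT values examined for a value far from the others, 3 were marked, and chance marks about 1 in 20. At equal depth, tRNA gene regions were called in 22, 22, 16 and 21 in WT 1 to 4, and the gap below the next library was 0.833 of the range, with WT 3 low. At equal depth, regions at genes of other kinds were called in 2, 4, 2 and 2 in WT 1 to 4, a gap of 1 of the range that rests on 2 regions in WT 2. The fold at Neat1 was 4.31, 4.29, 4.30 and 4.0 in WT 1 to 4, a gap of 0.929 of the range, with WT 4 low; folds depend on the depth of the library.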

How the results depend on the processing

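The number of regions (432) lay between 303 and 546 under 6 other choices of window, distance, list number, depth and −log10 p, and between 380 and 429 with 1 library left out. The median rank percentile (36.4) lay between 35 and 38.7 under all settings tried, which were chosen after seeing the data. Homo minus WT ran from -72.7 at equal depth to -148 in the window of 2500 bp, and from -213 to -54.8 with 1 library left out. At the length of the shortest list it was -0.75, less than the spread (45 ± 2.65 in Homo, 45.8 ± 2.06 in WT), so there the difference was lost. Het minus WT was -68.3 at equal depth and -2.08 at the shortest list length, and from -197 to -132 with 1 library left out. Homo minus Het turned to -4.33 at equal depth and to -47.8 without Homo 3, in a range of -47.8 to 110 over the left-out libraries.

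Regions in all of one group and none of the other, both directions summed, numbered 1 for Homo and WT, against 6 at equal depth, 0 at the shortest list length, 5 when 50% of a region had to be covered, 1 (reversed in direction) at −log10 p of at least 10, and 1 to 73 with a library left out. For Het and WT they numbered 25, against 5 at equal depth, 15 at −log10 p of at least 10, 1 at the shortest list length and 27 to 56 with a library left out. For Homo and Het they numbered 6, against 0 at −log10 p of at least 10, 0 at the shortest list length, 3 when 50% had to be covered and 8 to 20 with a library left out. The share of all regions moved as well. For every WT and no Homo it was 0.377% as deposited, 1.23% at equal depth and 22.6% without Homo 3. For every WT and no Het it was 5.36%, 1.01%, and 13.5% without Het 1. For every Homo and no Het it was 0.345%, 0.183%, and 3.31% without Homo 2. At the other settings named here it was not computed. Of 32 differences at regions named for these patterns, 7 stayed as deposited at equal depth, 6 at −log10 p of at least 10, 16 when 50% had to be covered and 0 at the shortest list length. The causes were not tested. With the replicate number as a block (without WT 4) the differences were -122, -166 and 44.3, and the patterns 2, 30 and 6; the numbers do not pair the libraries, with same-number correlations from -0.134 to 0.0119. Shallow libraries (Homo 2 at 0.464 tags per 200 bp) limit what a missing call means.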

Other observations

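Rows outside the autosomes and X were not used. On the mitochondrial chromosome each of the 10 lists held 2 rows, with folds between 1.27 and 1.63, the first running from base 64 to 75 up to base 3187 to 3323. On chromosome Y there were 23, 13 and 29 rows in Homo 1 to 3, 19, 14 and 13 in Het 1 to 3, and 36, 19, 26 and 30 in WT 1 to 4.

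The snRNA region at Gm23296 (chromosome 12) was called in Homo 1 and Homo 3 at folds of 6.19 and 4.35 and in no Het or WT library, and thinning to equal depth removed both calls. The 5S gene n-R5s117 was called in no Homo or Het library, and in WT 1, WT 2 and WT 4 at 4.76, 4.69 and 4.23, with 2 of the WT calls left at equal depth. Both were named after their values were seen.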
